A study of Mus musculus with 5 samples.

Results

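The 10 genes described here carry dietary fat through the gut epithelium and were followed in laser-captured cells of the newborn mouse intestine. They were chosen by symbol as genes of fat uptake, fat carriage, triglyceride synthesis and chylomicron assembly, namely Cd36, Fabp1, Fabp2, Mogat2, Dgat1, Mttp, Apob, Apoa1, Apoa4 and Apoc3. These genes, and the wider lists and markers below, were chosen with earlier results of these data known. Shares over all genes set beside their calls are therefore description only. All 10 members were found among the 22869 gene symbols of the table, in 15 of its 28644 transcript rows, and each is described by its row with the highest mean count. All 10 passed the filter on low counts.

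The study sequenced RNA of intervillus cells, the epithelium between the villi, from the proximal jejunum at postnatal day 0. The 3 control libraries (1, 2 and 3) have the genotype Dnmt1 L/+ and the 2 mutant libraries (4 and 6) Dnmt1 L/L; VillinCre, in which Cre recombinase is driven by a promoter of the gut epithelium. Whether the control mice also carried VillinCre is not given in the labels, nor whether each library came from its own mouse, so p-values measure the spread between libraries, which may be technical. Tissue was held in methacarn and embedded in paraffin, and 2.3 to 33.3 ng of RNA per sample was amplified before libraries were made. Areas without Ki67, a protein of dividing cells, were captured from mutants, and Ki67-positive areas from control littermates. Genotype and this choice of areas cannot be told apart in any comparison here.

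Milk and dietary triglyceride is split in the gut lumen, and the enterocyte takes up the fatty acids and monoacylglycerol. Inside the cell, fatty acid binding proteins carry the lipid and acyltransferases rebuild triglyceride. The microsomal transfer protein then loads triglyceride onto apolipoprotein B in the endoplasmic reticulum, and the particle leaves for the lymph as a chylomicron with further apolipoproteins on its surface. The newborn gut is known for a high capacity for this pathway, because milk is rich in fat.

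Counted with 1 row per gene, the libraries held between 8730268 and 13356901 reads. Dnmt1, the targeted gene, was lower in both mutants, at 115 ± 17.8 CPM in controls and 39.1 ± 1.93 CPM in mutants (edgeR adjusted p = 3.74e-05). CPM is the count scaled to the normalized library size, and values after ± are SDs over the 3 controls or the 2 mutants unless given as a standard error. Mki67, the gene of Ki67, was lower in mutants but still present, at 907 ± 125 CPM in controls and 508 ± 3.04 CPM in mutants (edgeR adjusted p = 0.00284). The 4 Y-linked genes Ddx3y, Eif2s3y, Kdm5d and Uty together had 2710 to 3160 counts in controls and 3 and 4 in mutants, while Xist had 42 to 72 counts in controls and 8277 and 10179 in mutants. Each difference between genotypes is therefore also one between libraries with and without Y-linked transcripts, and these cannot be told apart. Of 8 markers of epithelial identity all 8 were measured, with summed levels of 3998 to 4244 CPM in controls and 3933 and 4073 CPM in mutants. Of these, 1 rose, the keratin gene Krt18 (177 ± 16.3 and 307 ± 39.9 CPM; edgeR adjusted p = 0.00255), and 0 fell. Over all genes tested, 6.11% were called higher and 4.17% lower. Both mutants lay below all controls in 4 of the 8 markers, against 21.8% of all genes tested, and these 4 did not pass. Epcam and Vil1, an adhesion protein and an actin bundler of the brush border, were the most abundant of the 8 markers.

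The stretch of DNA before the start site is shown for Apoa1 and Apoa4, apolipoprotein genes of 1 cluster that rose in the mutants, and for the binding protein genes Fabp1 and Fabp2, which had the highest levels per length. The 250 bases come from the RefSeq promoter table of mouse build GRCm38.p6, which holds 7 of the 10 members; the expression files use build mm9, and no expression value depends on these coordinates. All 4 lie on the + strand and are written from 5′ to 3′, ending 1 base before the start site: Apoa1 at chr9:46228380-46228629, Apoa4 at chr9:46240594-46240843, Fabp1 at chr6:71199629-71199878 and Fabp2 at chr3:122894822-122895071. Capitals mark matches, on either strand, to CAAAGNNCA (the kind of site read by HNF4, a nuclear receptor of liver and gut), to AGGTCA (the core site of many nuclear receptors), to AGATAA (read by GATA factors) or to TATAAA (the TATA box).
Apoa1: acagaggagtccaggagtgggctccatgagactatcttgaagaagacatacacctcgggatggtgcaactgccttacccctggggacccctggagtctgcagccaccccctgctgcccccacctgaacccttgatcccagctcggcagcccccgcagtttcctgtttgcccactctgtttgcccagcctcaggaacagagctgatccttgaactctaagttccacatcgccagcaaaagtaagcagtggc
Apoa4: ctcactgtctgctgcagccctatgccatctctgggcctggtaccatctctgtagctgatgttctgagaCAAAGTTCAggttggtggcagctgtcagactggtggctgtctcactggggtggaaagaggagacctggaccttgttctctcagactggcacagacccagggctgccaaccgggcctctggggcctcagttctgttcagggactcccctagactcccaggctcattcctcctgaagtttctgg
Fabp1: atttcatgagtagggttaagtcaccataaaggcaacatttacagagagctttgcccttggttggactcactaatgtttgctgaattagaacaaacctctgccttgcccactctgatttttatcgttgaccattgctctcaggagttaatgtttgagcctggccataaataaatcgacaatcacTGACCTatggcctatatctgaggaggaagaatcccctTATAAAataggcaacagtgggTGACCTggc
Fabp2: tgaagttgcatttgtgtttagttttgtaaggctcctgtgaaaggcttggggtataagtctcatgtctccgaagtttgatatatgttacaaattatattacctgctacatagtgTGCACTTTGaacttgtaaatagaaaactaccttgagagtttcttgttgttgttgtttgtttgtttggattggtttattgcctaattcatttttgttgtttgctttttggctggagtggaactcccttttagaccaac

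Apoa4 had a CAAAGNNCA match starting 182 bases before the start site and Fabp2 had 1, on the other strand, starting 137 bases before it. Apob, whose promoter is not shown, also had 1, at 103 bases. Such a match was present in 5.49% of the 32851 promoters in the table. Fabp1 had 2 matches to AGGTCA (14.0% of promoters) and a TATA box 30 bases before its start (12.4% of promoters). Cd36, whose promoter is not shown either, had an AGGTCA match starting 228 bases before its start site. Apob also had a TATAAA match, starting 60 bases before its start site. AGATAA, found in 9.99% of promoters, had no match in the 7 members, and these letters were chosen after the sequences had been seen. Any of these letters may overlap another motif, and a match is a description and not a site of binding.

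The fatty acid binding proteins were the most abundant of these transcripts per length. The deposited FPKM scale divides by transcript length, so that genes can be set side by side. How evenly this amplified RNA covered each transcript was not tested, and comparisons between genes rest on it. On this scale Fabp2 ranked 1st of all 22869 genes in each of the 5 libraries. Its level was 8856 ± 3884 FPKM in controls and 12440 ± 3415 FPKM in mutants. Fabp1 ranked 2nd in the controls and in mutant 6 and 3rd in mutant 4, at 7461 ± 3186 and 9792 ± 1695 FPKM. Apoa4 was next (3743 ± 1224 and 9097 ± 943 FPKM), followed by Apoa1 (2994 ± 742 and 5180 ± 237 FPKM). Both ranked between 2nd and 5th of all genes in every library. In controls the ranges of Fabp2 and Fabp1 overlapped, as did those of Fabp1 and Apoa4 and of Apoa4 and Apoa1, but within each control library the order of these 4 was the same.

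Lower on the same scale stood Apoc3, Apob and Mttp, at 806 ± 195, 530 ± 122 and 336 ± 53.9 FPKM in controls, with no overlap between neighbours in this order. The triglyceride synthesis genes Mogat2 (109 ± 16.8 FPKM) and Dgat1 (104 ± 16.1 FPKM) overlapped in the controls. Cd36 was the lowest, at 17.9 ± 5.22 FPKM in controls and 40.8 ± 2.92 FPKM in mutants, and ranked 2773rd to 4331st of all genes in controls and 1248th and 1497th in mutants. Together the 10 genes took 3.04% to 4.97% of all reads in the control libraries. Both mutant libraries exceeded this range, with shares of 6.50% (mutant 4) and 6.46% (mutant 6).

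**Figure D1:**
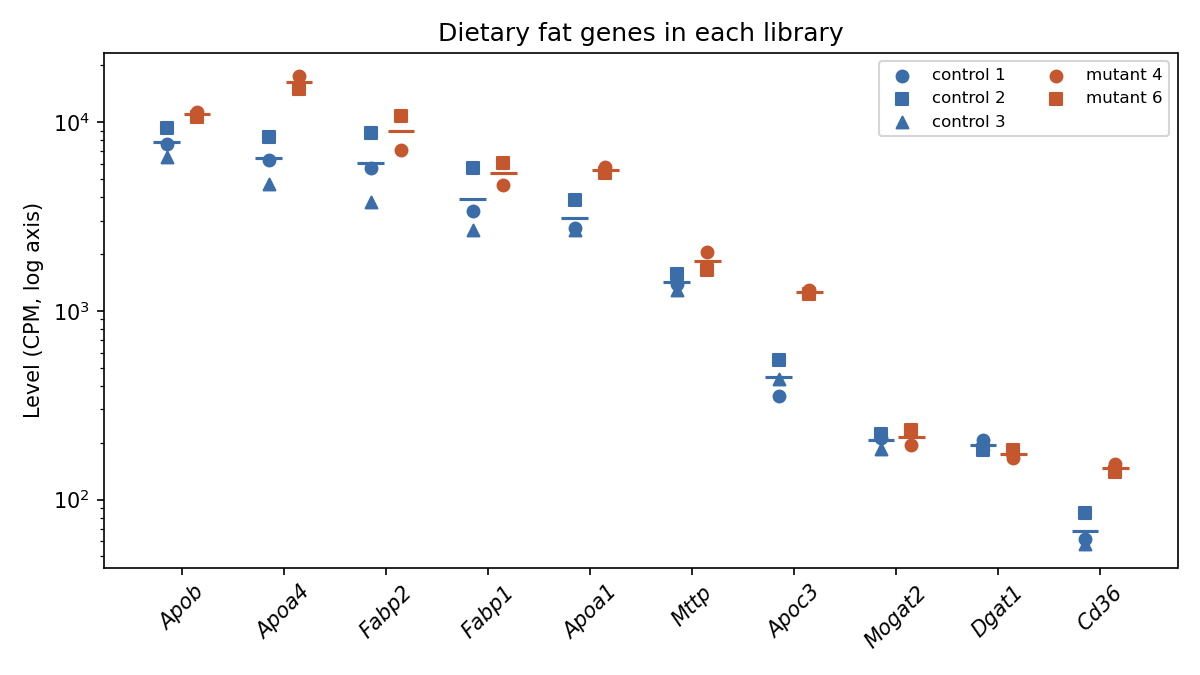
Level of each of the 10 genes in each library, in CPM on a log axis (blue, 3 controls; red, 2 mutants; horizontal lines, group means); CPM is not corrected for length, so levels compare within a gene. Both mutants lie above all controls for Apob, Apoa4, Apoa1, Mttp, Apoc3 and Cd36, and below them for Dgat1.

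Between genotypes, 4 of the 10 members rose in the mutants and 0 fell, while 6 did not pass the test. Without control 2, 7 of the 10 rose, and without mutant 4, 3. With all libraries, the risers were the apolipoprotein genes Apoc3, Apoa4 and Apoa1 and the fatty acid translocase gene Cd36. Over all 14572 genes tested, 6.11% were called higher and 4.17% lower, 10.3% in either direction (edgeR quasi-likelihood test, adjusted p under 0.05 over all transcript rows). The median log2 fold change was 0.53 over the 10 members and -0.01 over all genes. Both mutants lay above all controls in 6 members (21.7% of all genes) and below them in 1 (21.8% of all genes). No member was called lower by any of the 16 alternative analyses either, and at an unadjusted p under 0.05 the only further members were Apob and Mttp, both higher in mutants; 25.6% of all genes had such a p, in either direction. In bulk samples a change in the share of cells that make a transcript and a change in transcript per cell cannot be told apart.

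**Figure D2:**
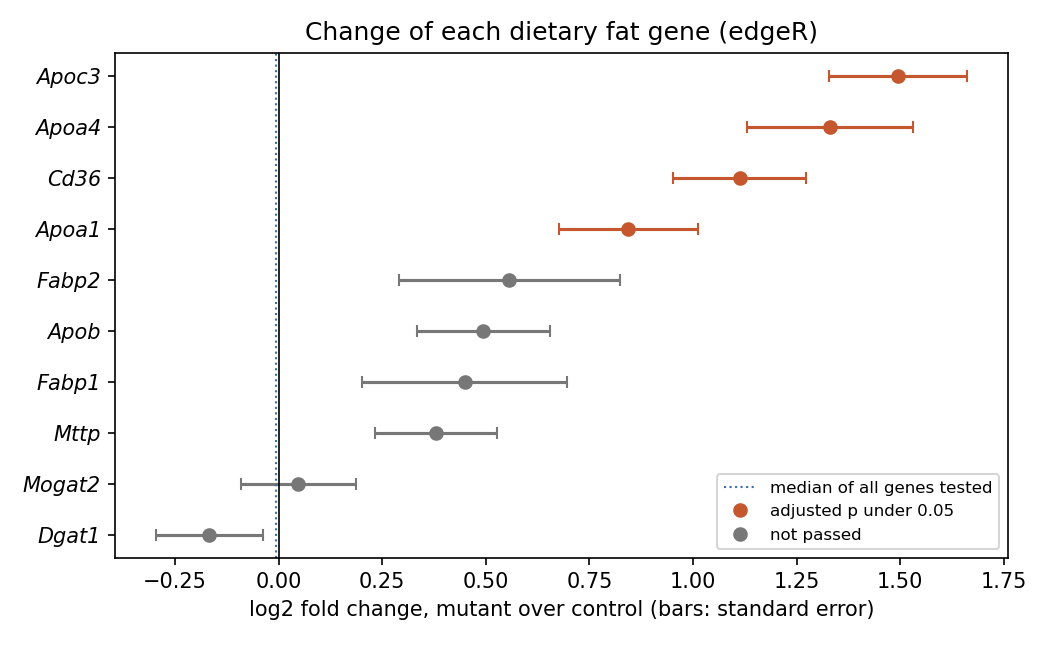
Log2 fold change of each gene, mutant over control, with its standard error (red, adjusted p under 0.05; grey, not passed; dotted line, median of all genes tested). Apoc3, Apoa4, Cd36 and Apoa1 stand at 1.49, 1.33, 1.11 and 0.84, and Mogat2 and Dgat1 lie near 0.

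Apoc3 encodes a small surface apolipoprotein that slows the clearance of triglyceride-rich particles by lipoprotein lipase. It had the largest change of the 10. Its level was 354, 551 and 434 CPM in controls 1, 2 and 3 and 1290 and 1224 CPM in mutants 4 and 6. The mutants agreed closely, and even the lower of them was above the highest control. The log2 fold change was 1.49 ± 0.17 (SE), or 2.82-fold (edgeR adjusted p = 7.99e-05).

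Apoa4, an apolipoprotein that the gut makes in response to fat and that is known to help particles grow, was 6265, 8347 and 4718 CPM in the controls and 17434 and 14973 CPM in the mutants. Control 3 was the lowest and control 2 the highest, a 1.77-fold spread, and neither mutant overlapped them. Apoa4 rose 2.51-fold (log2 fold change 1.33 ± 0.20; edgeR adjusted p = 0.000843). On the FPKM scale the ratio of Apoa4 to Apob was 6.97, 7.68 and 6.17 in controls and 13.2 and 12.1 in mutants.

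Apoa1, the main protein of high density lipoprotein and also a coat protein of chylomicrons, was 2750, 3874 and 2686 CPM in the controls and 5793 and 5345 CPM in the mutants. Controls 1 and 3 were nearly alike and control 2 stood above them, still below both mutants. Apoa1 rose 1.79-fold (log2 fold change 0.84 ± 0.17; edgeR adjusted p = 0.00607). Without mutant 4 the change was 0.78 and no longer passed (edgeR adjusted p = 0.0598).

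These 3 genes are neighbours on chromosome 9, in the order Apoa1, Apoc3, Apoa4 and Apoa5. Their nearest protein-coding neighbours matched by symbol were looked up after the values were seen. On one side, Sik3, a kinase gene, had a log2 fold change of -0.02 ± 0.13 and Pafah1b2 one of -0.24 ± 0.13; on the other, Apoa5 had at most 3 counts in any library and was not tested, and Bud13 stood at -0.21 ± 0.24. None of Sik3, Pafah1b2 and Bud13 passed (edgeR adjusted p = 0.955, 0.271 and 0.634). The difference between the 3 apolipoprotein genes and these neighbours was not tested.

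Apob encodes the structural protein on which each chylomicron is built. It was 7636, 9246 and 6544 CPM in controls and 11331 and 10659 CPM in mutants. Both mutants exceeded every control, but the change of 0.49 ± 0.16 log2 units did not pass the test (edgeR adjusted p = 0.0682). It passed with DESeq2 (adjusted p = 0.0144), with limma-voom (adjusted p = 0.0429), with no filter on low counts and without control 2. Mttp, the lipid transfer subunit that loads Apob, was 1391, 1563 and 1280 CPM in controls and 2035 and 1639 CPM in mutants. Here mutant 6 lay just above control 2, and the change of 0.38 ± 0.15 did not pass (edgeR adjusted p = 0.12). A second Mttp row gave 0.38 ± 0.15 as well.

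Within each library, the coat genes were set against Apob on the FPKM scale. Apoc3 stood at 1.23, 1.63 and 1.76 times Apob in the controls and 3.12 and 3.17 times in the mutants. Apoa1 stood at 5.11, 5.98 and 5.87 times in the controls and 7.24 and 7.19 times in the mutants. For Apoa4, Apoc3 and Apoa1 the mutant ratios lay above all control ratios. The ratio of Mttp to Apob overlapped, at 0.641 ± 0.0511 in controls and 0.592 ± 0.0720 in mutants. Relative to Apoa1, both Apoc3 and Apoa4 were higher in mutants, with mean ratios of 0.435 against 0.271 and of 1.75 against 1.23 and no overlap. The ratio of Apoc3 to Apoa4 overlapped (0.224 ± 0.0553 and 0.249 ± 0.0186). The differences in these ratios were not tested.

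**Figure D3:**
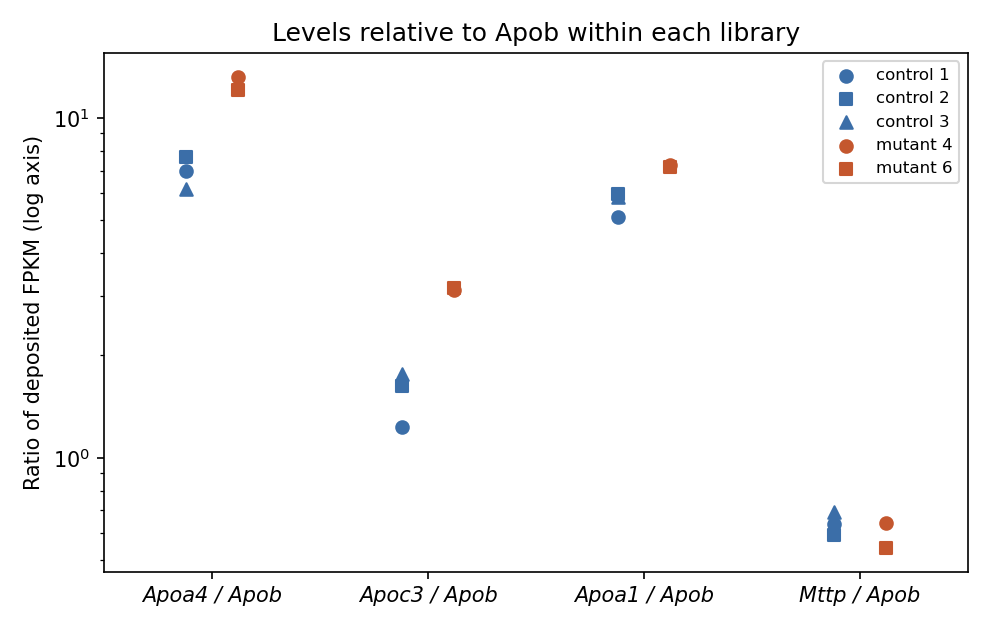
Ratio of the deposited FPKM of Apoa4, Apoc3, Apoa1 and Mttp to that of Apob within each library, on a log axis (blue, 3 controls; red, 2 mutants). The 3 coat genes have mutant ratios above all control ratios, while those of Mttp, 0.542 and 0.643 in mutants, overlap the controls.

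The intracellular carriers varied most between libraries of the same group. Fabp1, the liver-type binding protein, was 3380, 5723 and 2676 CPM in controls and 4651 and 6065 CPM in mutants. Fabp2, the intestinal type, was 5677, 8711 and 3781 CPM in controls and 7131 and 10691 CPM in mutants. In both genes control 2 exceeded mutant 4, so the groups overlapped. The highest control was 2.14 times the lowest for Fabp1 and 2.30 times for Fabp2, against 1.13 times for Dgat1. Neither Fabp1 (0.45 ± 0.25; edgeR adjusted p = 0.272) nor Fabp2 (0.56 ± 0.27; edgeR adjusted p = 0.209) passed. Without control 2 both passed, at 0.84 (edgeR adjusted p = 0.00839) and 0.93 (edgeR adjusted p = 0.0183). The ratio of Fabp2 to Fabp1 was steadier than either, between 1.07 and 1.35 in all 5 libraries, and overlapped between the groups.

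The acyltransferase genes showed the smallest differences. Mogat2 encodes the enzyme that adds a fatty acid to monoacylglycerol, the first step of triglyceride rebuilding in the gut. It was 213, 223 and 185 CPM in controls and 195 and 233 CPM in mutants, which overlapped (0.05 ± 0.14; edgeR adjusted p = 0.865). Dgat1, which makes triglyceride from diacylglycerol, was 206, 183 and 198 CPM in controls and 166 and 182 CPM in mutants. Mutant 6 lay just below control 2, the lowest control, and the change of -0.17 ± 0.13 did not pass (edgeR adjusted p = 0.441). On the FPKM scale the Dgat1 values of the groups overlapped.

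Cd36, a membrane receptor that binds long-chain fatty acids, was 61.9, 84.8 and 57.9 CPM in controls and 155 and 140 CPM in mutants. Control 2 was again the highest control, and both mutants lay well above it. Cd36 rose 2.16-fold (log2 fold change 1.11 ± 0.16; edgeR adjusted p = 0.000663). Its 5 transcript rows repeat nearly the same reads, and their log2 fold changes lay between 1.11 and 1.12. Relative to Dgat1 on the FPKM scale, Cd36 stood at 0.176 ± 0.0613 in controls and 0.450 ± 0.0598 in mutants, with no overlap.

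Control 2 had the highest level of 9 of the 10 genes among controls, all but Dgat1, and control 3 the lowest of 8, all but Apoc3 and Dgat1. Among the mutants the order was mixed: mutant 4 was higher for Apoa1, Apoa4, Apoc3, Apob, Mttp and Cd36, and mutant 6 for Fabp1, Fabp2, Mogat2 and Dgat1.

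Around these 10 genes, a wider list of 72 genes of fat handling was read from the same fit; 68 passed the filter, 13 rose and 3 fell, against 6.11% higher and 4.17% lower over all genes; the count of lower calls is near that share. The median was 0.11, and both mutants lay above all controls in 28 (21.7% of all genes) and below them in 10 (21.8% of all genes). With library size alone as the scaling, 11 rose and 6 fell. Without control 1, mutant 4 or mutant 6, 6, 6 and 7 rose and 1 fell in each case, and without control 3 5 fell.

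The largest changes of the wider list were in 3 other apolipoprotein genes, Apom, Apoc1 and Apoc2. The list of other apolipoproteins and Apob RNA editing genes had 6 measured members, of which Apobec1 and A1cf are the editing genes. Of the 6, 3 rose (6.11% of all genes) and 0 fell (4.17% of all genes), and the median over all 6 was 0.83. Apoc2, the activator of lipoprotein lipase, went from 1477 ± 374 to 3553 ± 40.4 CPM, a change of 1.27 ± 0.18 on the log2 scale (edgeR adjusted p = 0.000607). Apoc1 went from 10.8 ± 1.82 to 43.0 ± 16.5 CPM (1.99 ± 0.23; edgeR adjusted p = 0.000115). Apom, a carrier of sphingosine phosphate, rose from a low level of 1.51 ± 0.649 to 8.21 ± 1.48 CPM, with 15 to 38 counts in controls and 81 and 120 in mutants. Apoe was 71.9 ± 12.8 and 94.2 ± 3.38 CPM, and A1cf, the cofactor of Apob RNA editing, was 189 ± 8.76 and 154 ± 16.7 CPM; neither passed.

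Of 11 genes of triglyceride and phospholipid synthesis, 1 rose (6.11% of all genes) and 0 fell (4.17% of all genes), with a median of 0.13. The count of higher calls is near that share. The riser was Dgat2, an enzyme of the same step as Dgat1 but from another family. It was 524, 635 and 524 CPM in controls and 913 and 1052 CPM in mutants (0.81 ± 0.14; edgeR adjusted p = 0.00252). Lpcat3, which remodels phospholipid, was 290 ± 33.0 and 317 ± 7.47 CPM, and Agpat3 237 ± 35.3 and 304 ± 47.6 CPM. Of 10 genes of fatty acid uptake and activation, 2 rose (6.11% of all genes) and 0 fell (4.17% of all genes), with a median of -0.01. Acsl5, an acyl-CoA synthetase, went from 1337 ± 292 to 2029 ± 127 CPM (0.60 ± 0.17; edgeR adjusted p = 0.0363) and the lipoprotein receptor gene Scarb1 from 19.0 ± 2.25 to 30.3 ± 0.572 CPM (0.68 ± 0.17; edgeR adjusted p = 0.023). Neither Acsl5 nor Scarb1 passed without control 1, mutant 4 or mutant 6, and Acsl5 also failed without control 3. Dbi, the acyl-CoA binding protein, was 1047 ± 153 and 808 ± 93.0 CPM, and the transporter Slc27a4 was 186 ± 27.4 and 236 ± 21.4 CPM.

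Of 9 lipid droplet and lipolysis genes, 5 rose (6.11% of all genes) and 0 fell (4.17% of all genes), with a median of 0.59. Lipa, the lysosomal acid lipase, went from 199 ± 45.4 to 406 ± 71.3 CPM (1.03 ± 0.18; edgeR adjusted p = 0.00269; 0.0521 without mutant 4). Abhd5, an activator of triglyceride lipase, changed by 0.69 ± 0.17, Mgll, the monoacylglycerol lipase, by 0.64 ± 0.18 and the droplet coat gene Plin2 by 0.60 ± 0.16. These 3 were each lost without 2 to 4 of the 5 libraries in turn, and Mgll also with library size alone (edgeR adjusted p = 0.0531). Cideb and Cidec, which enlarge droplets, did not pass, at 200 ± 24.6 and 238 ± 36.9 CPM and at 93.6 ± 25.8 and 138 ± 5.02 CPM. Of 6 sterol genes, 2 rose (6.11% of all genes) and 0 fell (4.17% of all genes), with a median of 0.48. Npc1l1, the cholesterol uptake protein of the brush border, went from 290 ± 34.8 to 560 ± 73.3 CPM (0.95 ± 0.14; edgeR adjusted p = 0.000889), and the efflux pump Abca1 changed by 0.68 ± 0.20, a call lost when any 1 of the 5 libraries was left out and with library size alone (edgeR adjusted p = 0.0648). Soat1 was 103 ± 24.9 and 109 ± 2.99 CPM, and Abcg8 77.8 ± 28.6 and 105 ± 30.8 CPM.

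The 10 genes of lipoprotein assembly and export from the endoplasmic reticulum had 0 calls with edgeR, while all 10 log2 fold changes were above 0 (49.2% of all genes; median 0.25). With DESeq2 2 of the 10 passed, against 6.25% of all genes called higher by that tool. An unadjusted edgeR p under 0.05 was found for 4 of the 10, against 25.6% of all genes. P4hb, the partner subunit of Mttp, was 1760 ± 331 and 2486 ± 109 CPM (edgeR adjusted p = 0.0669), and Surf4, a cargo receptor, 371 ± 24.5 and 413 ± 26.5 CPM.

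Transcription factors known to act on fat genes had calls only in the lower direction. Of 16 measured, 3 fell (4.17% of all genes) and 0 rose (6.11% of all genes). Above 0 were 2 log2 fold changes (49.2% of all genes), and the median was -0.21. Cdx2, a regulator of intestinal identity, was 54.6, 43.5 and 65.1 CPM in controls and 28.3 and 28.2 CPM in mutants (-0.94 ± 0.18; edgeR adjusted p = 0.00454). Gata4, which marks the proximal intestine, was 191, 163 and 234 CPM in controls and 122 and 126 CPM in mutants (-0.66 ± 0.16; edgeR adjusted p = 0.0168; not passed without control 1, mutant 4 or mutant 6). Hnf4g fell by 0.43 ± 0.13 (edgeR adjusted p = 0.0488), a call lost in 12 of the 16 alternatives, among them RLE scaling (adjusted p = 0.0541), upper-quartile scaling (adjusted p = 0.0672) and each case with 1 library left out. Hnf4a, its close relative and an activator of apolipoprotein genes, was 525 ± 96.7 and 412 ± 27.3 CPM and did not pass. Plagl2 was 1160 ± 122 and 1028 ± 135 CPM.

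**Figure D4:**
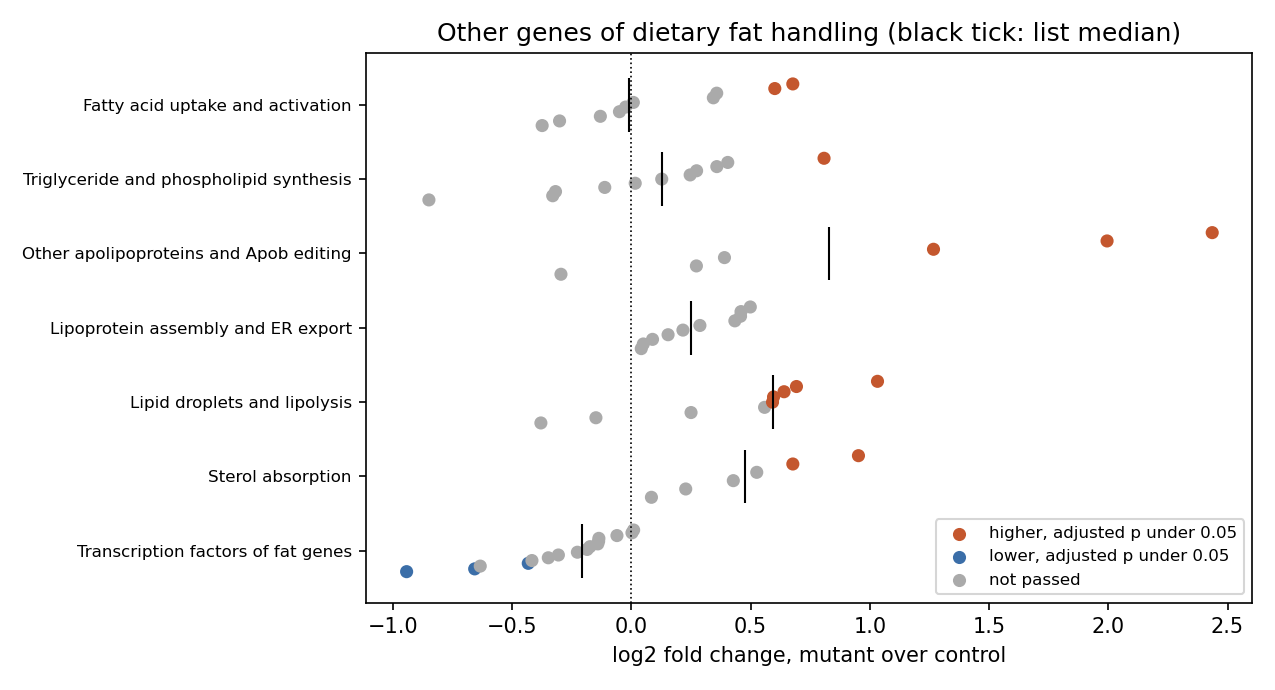
Log2 fold change, mutant over control, of the 68 measured genes of the wider list, by role (red, higher; blue, lower; grey, not passed; black tick, list median). The 3 blue points are Cdx2, Gata4 and Hnf4g, and the points furthest right are Apom, Apoc1 and Apoc2.

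Markers of enterocytes and of other cells were read from the same fit. Beside the counts of calls below, 6.11% of all genes were called higher and 4.17% lower. Of 10 absorptive enterocyte markers, 5 rose and 0 fell, with a median log2 fold change of 0.47. Both mutants lay above all controls in 7 of the 10 (21.7% of all genes) and below them in 0 (21.8% of all genes). Summed levels were 7267 to 8204 CPM in controls and 7806 and 8252 CPM in mutants, which overlapped. The largest part of each sum was the peptidase Anpep (4684 ± 609 and 3983 ± 255 CPM), at a log2 fold change of -0.23. Anpep and lactase, Lct (974 ± 242 and 1066 ± 80.5 CPM), the most abundant of the 10, did not pass. Liver and yolk sac make some of the 10 members too, Apoa1, Apob and Fabp1 among them. Of 10 hepatocyte and yolk sac markers 5 were measured and 4 rose, with sums of 74.0 to 188 CPM in controls and 478 and 537 CPM in mutants, most of it Ttr (92.9 ± 61.5 and 429 ± 47.0 CPM), followed by Trf (14.2 ± 1.70 and 43.7 ± 6.78 CPM). Afp (7.09 ± 3.74 and 25.8 ± 2.61 CPM) and Fga (1.31 ± 1.22 and 5.81 ± 1.71 CPM) also rose, and Serpina1a did not pass. The liver gene Alb had 1 to 13 counts in every library, and Ahsg was at or near 0.

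For Cd36, other known sources are endothelium, macrophages, fat cells and platelets. The shares over all genes were again 6.11% called higher and 4.17% called lower. The 8 endothelial markers summed to 174 to 221 CPM in controls and 237 and 245 CPM in mutants with 0 calls, Pecam1 being 47.1 ± 4.67 and 57.4 ± 5.71 CPM and Fabp4 39.4 ± 8.65 and 48.9 ± 2.74 CPM. Of 8 macrophage markers 2 rose, Csf1r (57.5 ± 14.7 and 167 ± 10.4 CPM) and Mrc1 (14.1 ± 0.679 and 36.5 ± 7.31 CPM). The other 6 did not pass, among them Lyz2 (20.5 ± 3.87 and 24.5 ± 1.32 CPM). The sums were 108 to 149 CPM in controls and 261 and 299 CPM in mutants, the largest part of each being Csf1r. Of the 6 adipocyte markers Adipoq was at 0 counts in all libraries and 1, Plin4, passed the filter (1.14 ± 0.330 and 1.23 ± 0.989 CPM), the rest, Cfd among them, being near 0. The platelet markers, led by Pf4 (6.77 ± 1.66 and 10.2 ± 2.22 CPM) and Gp9, summed to 11.4 to 13.5 CPM in controls and 11.5 and 15.3 CPM in mutants. Smooth muscle markers summed to 163 to 236 CPM in controls and 281 and 375 CPM in mutants, and 2 of 6 rose, Acta2 and Myh11. Of 6 pancreatic acinar genes, led by Clps and Cela1, 2 were measured and neither passed. The part of these cells in the changes of the fat genes was not tested.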

How the data were processed

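The deposited tables hold, for each RefSeq transcript and library, the raw count and the FPKM value that the authors computed. Build mm9 and edgeR are named per the submitters' processing notes. Aligner, counter and strand setting: not given in the sources used here. Rows of a gene repeat most of its reads, so CPM denominators count some reads more than once. Spreadsheet dates stood in for symbols in 41 rows, which got their names back through the transcript accession.

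The deposited counts were fitted across all genes in R 4.3.3 with edgeR 4.0.16 and tested by quasi-likelihood F (default low-count filter, TMM, no covariate, 3 residual degrees of freedom), with Benjamini-Hochberg adjustment over 19353 rows. Each standard error was taken as |log2 fold change| divided by the root of F. The procedure was tested on simulated data. Alternatives used DESeq2 1.42.0 and limma 3.58.1 (voom, or log2 of the deposited FPKM with pseudocounts 1 and 0.1), whose fold changes are then on that log2 scale. The 10 genes, the wider lists, markers and motifs were chosen with earlier results of these data known. From each fat list, up to 4 genes that passed (largest change) and 2 that did not (highest count) were named. From each marker list the 2 with the highest count were named. Mki67, Alb, Ahsg, Afp, Fga, Serpina1a, Mrc1 and Adipoq were added after their values were seen.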

Additional observations from a re-analysis of the deposited data

How the results depend on the processing

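No paired analysis was made, because the sample details used here give no litter for any library. Controls are described as littermates, and any shared litter was not accounted for. With 3 and 2 libraries of amplified RNA, the spread within a group is poorly known, and depth does not limit the 10 genes, whose counts were at least 823 in every library.

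The log2 fold changes of Apoc3, Apoa4, Apoa1 and Cd36 were above 0 in all 16 alternatives, but none of the 4 was called on unfiltered FPKM with either pseudocount, Apoa4 and Apoa1 were not called on FPKM with a mean of at least 1, and Apoa1 was not called without mutant 4. The number of the 10 genes called higher was 7 with no filter on low counts, between 3 and 7 when a library was left out (7 without control 2), and 0, 0 and 2 on the deposited FPKM with pseudocount 1, with pseudocount 0.1 and with a mean of at least 1. On FPKM the log2 fold changes were close to those from counts (1.33 for Apoa4 and 1.51 for Apoc3). The median of the 10 genes ranged from 0.35 to 0.88 when a library was left out, the highest without control 2. The sign of Mogat2 turned with library size alone (-0.0038), on FPKM (-0.0629 with pseudocount 1, -0.0634 with pseudocount 0.1 and -0.0629 with a mean of at least 1), and, within a range of -0.0923 to 0.1712, without control 3 (-0.0263) or mutant 6 (-0.0923); it passed in no setting.

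In the wider list, the genes called higher numbered 1, 1 and 4 on FPKM with pseudocount 1, pseudocount 0.1 and a mean of at least 1, and 6 to 16 when a library was left out. Those called lower numbered 0 in each FPKM setting, 6 with library size alone, 6 with no filter, 5 with DESeq2, and 1 to 5 when a library was left out.

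Over all genes, 97, 155 and 258 were called higher and 13, 36 and 131 lower on FPKM with pseudocount 1, pseudocount 0.1 and a mean of at least 1, against 891 and 608 from counts; 935 were lower with no filter. When a library was left out, 408 to 1057 were higher and 170 to 645 lower. The cause of these differences was not tested.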
